A study of Bos taurus with 4 samples.

Results

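Chaperones and proteasome subunits are the genes of protein folding and protein disposal, and 109 of them were followed here among the 12545 genes measured on a bovine whole genome oligonucleotide array. They were chosen by name: every gene whose symbol in the platform annotation begins with the stem of a heat shock protein family (HSPA, HSPB, HSPD, HSPE, HSPH or HSP90), with DNAJ, PDIA or CCT and a digit, or with PSM and a letter from A to G, with the basement membrane gene *HSPG2* left out. Each gene was represented by its brightest probe. By the place where their proteins are known to work, 13 were assigned to the endoplasmic reticulum (ER), 41 to the cytosol and nucleus, 5 to the cytosolic chaperonin CCT and 7 to mitochondria. A further 13 encode constitutive subunits of the 20S proteasome core, 4 its alternative beta subunits, 11 the 19S particle, and 12 proteasome regulators and assembly factors. The other 3 (*PSMC3IP*, *HSPBAP1* and *HSPBP1*) share the letters but are neither. *HSPA5*, *PDIA4*, *DNAJC3* and *HSPD1* were not matched in the annotation and are not analysed here. The same holds for other genes of these classes, among them *PSMB7*, *PSMC3*, *PSMC4*, *PSMC6*, *CCT3* and *CCT5*. The classes therefore do not cover whole complexes.

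The RNA came from inner cell masses (ICMs) of in vitro produced bovine blastocysts collected on day 9 and dissected by hand with tungsten needles. MAPK-inhibited ICMs came from embryos cultured with PD0325901, an inhibitor of the kinase MEK that lies upstream of the MAP kinase ERK, and control ICMs from embryos given the solvent DMSO. Each group had 2 arrays, replicates a and b, hybridised against a common pool of blastocysts, with the ICM sample in Cy3 on both a arrays and in Cy5 on both b arrays. Dye orientation and replicate letter therefore cannot be told apart, hand dissection can leave trophectoderm cells on an ICM, and fewer cells of a type and less RNA per cell cannot be told apart in such samples.

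Newly made secretory and membrane proteins fold inside the ER, where HSP90B1, protein disulfide isomerases and J-domain proteins attend them, and genes of this kind are induced together by the unfolded protein response. HSP70, HSP90 and small heat shock proteins do the corresponding work in the cytosol, where heat shock factor 1 controls many of their genes. Worn or misfolded proteins tagged with ubiquitin are degraded by the proteasome, a barrel (20S) whose entry is guarded by the 19S particle or by other caps, such as the PA28 activator made of PSME1 and PSME2.

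Of the members, 106 were above the negative control spots on all 4 arrays. The exceptions were *HSPA13*, *HSPA12A* and *DNAJC28*, each of which was not above them on the MAPK-inhibited a array. That array stood apart from the rest: 83.7% of its probes were above the negative controls, against 97.5% on MAPK-inhibited b and 99.5% and 99.8% on control a and b. Many of its spots were also uneven, with a pixel SD of over 0.5 of the spot mean. Such spots made up 33.0% of genes on MAPK-inhibited a and 11.3% on MAPK-inhibited b, against 0.136% and 0.175% on control a and b. Among the members these were 33 and 12 genes on the MAPK-inhibited arrays and 0 on either control array. Signals on the 2 arrays of one dye also resembled each other more than those of one group: the ratios correlated across genes with r = 0.60 between both a arrays and r = 0.58 between both b arrays, against r = 0.42 between the MAPK-inhibited arrays and r = 0.28 between the control arrays. Genes are not independent replicates, and these correlations are given as a description. The ICM identity of the samples was visible in the pluripotency genes *NANOG* and *SOX2*, which exceeded the pool on all 4 arrays.

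The first question was where transcripts of these genes stood in the ICM relative to the whole blastocyst. All ratios below are log2 ratios of ICM sample over pool, so that 0 means equal signal, and they carry no test because the pool has no replicates of its own. As a set the members stayed near the pool, with a median ratio of -0.02 and -0.00 on MAPK-inhibited a and b and 0.01 and -0.01 on control a and b. On all 4 arrays 15 members were above the pool and 17 below it, beside 15.6% and 15.8% of all genes. Among members above the pool throughout, *PSME1* and *HSPB1* had the highest mean ratios in either group. *PSME1* averaged 1.68 ± 0.21 in MAPK-inhibited ICM and 0.50 ± 0.06 in control ICM, and *HSPB1* 1.29 ± 0.38 in MAPK-inhibited ICM and 0.51 ± 0.03 in control ICM (SD, n = 2 each). Over all 4 arrays *PSMA7*, *HSPH1* and *HSPBP1* came next, an order that partly rests on the treated arrays, since *HSPBP1* averaged 0.52 in MAPK-inhibited ICM and 0.14 in control ICM, where *DNAJC24*, chosen after its values were seen, was higher at 0.33. The lowest over all 4 arrays was *PSMD10* (also called gankyrin), an assembly factor of the 19S base, at -0.81 ± 0.16 in MAPK-inhibited ICM and -0.42 ± 0.10 in control ICM (SD, n = 2 each). *DNAJB1*, the main cytosolic J-domain partner of HSP70, averaged -0.41 ± 0.06 in MAPK-inhibited ICM and -0.80 ± 0.39 in control ICM (SD, n = 2 each). The J-protein genes *DNAJB4*, *DNAJB9* and *DNAJC15* followed, with means over all 4 arrays of -0.50, -0.44 and -0.39. This order depended on the probe. The second probes of *DNAJB1*, *DNAJB4* and *DNAJC15* had means of 0.06, -0.04 and -0.13, while *PSMD10* and *DNAJB9* had no other probe. Among the high genes, the other probes of *PSME1* were at 0.66 and -0.05, and those of *PSMA7* between 0.24 and 0.31.

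The classes were ordered differently in the 2 groups. The 13 ER chaperones had a median ratio of -0.12 and -0.20 on MAPK-inhibited a and b, below the pool, and of 0.13 and 0.07 on control a and b, above it. The cytosolic and nuclear chaperones had medians of -0.02 and 0.05 on MAPK-inhibited a and b and of -0.03 and 0.06 on control a and b, so that they followed the letter rather than the group. The difference between the ER and the cytosolic median was -0.09 and -0.25 on the MAPK-inhibited arrays, against 0.16 and 0.02 on the control arrays. Set against the 20S and 19S subunits together, the ER median was -0.13 and -0.12 on the MAPK-inhibited arrays, against 0.05 and 0.17 on the control arrays. Members of a class are not replicates, and these differences carry no test. The classes also differed in brightness. The median raw log2 signal (mean over both channels of the 4 arrays) was 10.93 for the ER chaperones and 8.25 for the cytosolic and nuclear chaperones. For the 20S and 19S subunits together it was 12.54. What part brightness had in these contrasts was not tested.

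**Figure D1:**
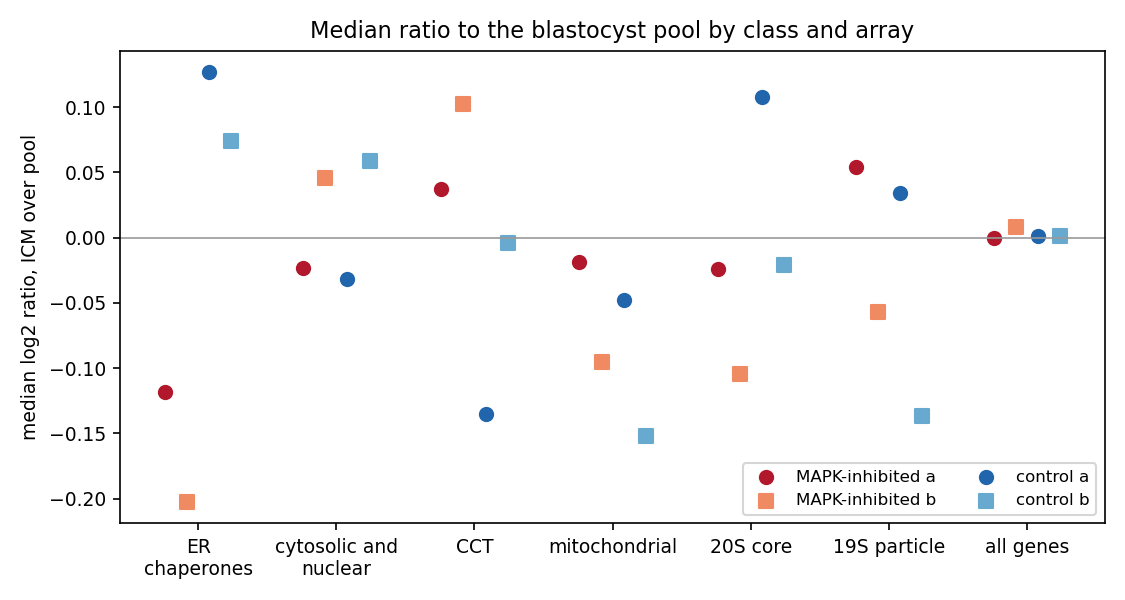
Median log2 ratio of ICM sample over blastocyst pool for 6 classes and for all genes, with 1 point per array (MAPK-inhibited in red and orange, control in blue, circles for replicate a and squares for replicate b). The ER chaperones lie below 0 on both MAPK-inhibited arrays and above 0 on both control arrays. The other classes show no such separation apart from the CCT genes and the 20S core. For the CCT genes it runs the other way, on the brightest probe of each gene. In the 20S core the median of both MAPK-inhibited arrays is below that of both control arrays.

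The second question was which of these genes differed between MAPK-inhibited and control ICM. In limma's test over all 12545 genes, 0 genes passed the adjusted p threshold of 0.05 (0% of all genes) and so did 0 members. At an unadjusted p under 0.05, MAPK-inhibited ICM had 12 members with higher and 12 with lower values (11% of members each), where 7.53% of all genes were higher and 4.39% lower. These splits depended on the background estimate and on the scaling. With the background mean 4 members were higher and 13 lower, where 5.15% and 5.28% of all genes were, and with median centring in place of loess 3 members were higher and 20 lower, where 2.06% and 11.4% of all genes were. With 1 array left out, the members numbered 13 higher and 9 lower without MAPK-inhibited a, 5 and 5 without MAPK-inhibited b, 9 and 3 without control a, and 2 and 6 without control b. The arrays of the groups did not overlap for 21 members with higher and 24 with lower ratios in MAPK-inhibited ICM, where this held for 20% and 17.5% of all genes. Differences were above 0 for 52 members and below 0 for 57, where 52.1% and 47.9% of all genes were, and the median difference was -0.00 over the members and 0.01 over all genes. Below, each difference is the log2 ratio in MAPK-inhibited ICM minus that in control ICM, with its SE from the fit and its adjusted p by the Benjamini-Hochberg method. All adjusted p-values of the 24 members lay between 0.252 and 0.401. With 2 arrays a group, an exact permutation test of a single gene that ignores the replicate letter cannot go below p = 0.333. One that exchanges arrays only within a letter has fewer arrangements and thus a higher floor.

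**Figure D2:**
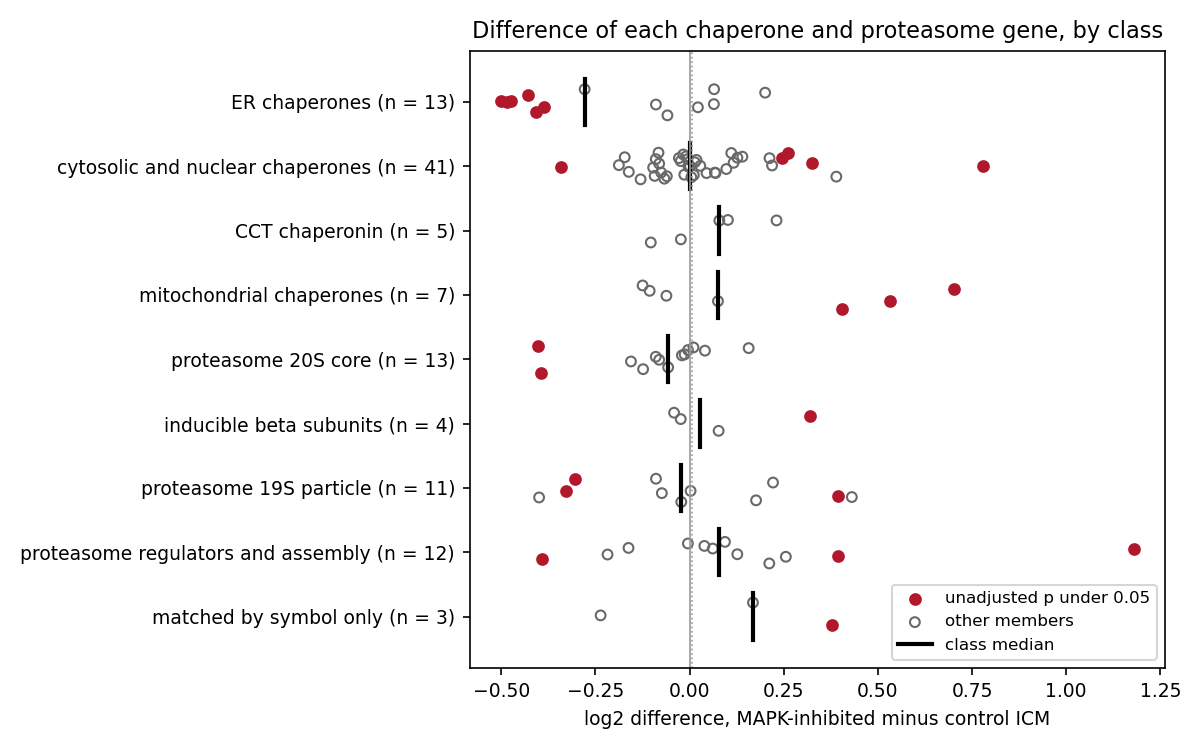
Log2 difference of each member (MAPK-inhibited minus control ICM), 1 point per gene, arranged by class with the class median as a black bar; filled points have an unadjusted limma p under 0.05, and the dotted line is the median of all genes. The 6 filled ER chaperones lie between -0.50 and -0.39, and the filled point furthest to the right is *PSME1* at 1.18.

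The ER chaperones were the class with the lowest median difference, at -0.28, with 9 of 13 members lower in MAPK-inhibited ICM. 6 of them had an unadjusted p under 0.05 in that direction (46.2% of the class, where 4.39% of all genes were). The ratios of 8 were lower in MAPK-inhibited ICM without overlap between the groups, where this held for 17.5% of all genes. These 6 were *HSP90B1*, *DNAJB9*, *DNAJB11*, *PDIA3*, *PDIA5* and *PDIA6*, with MAPK-inhibited signal at 0.707 to 0.766 of control. None passed the adjusted threshold.

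*HSP90B1* encodes GRP94, the HSP90 of the ER lumen, which folds integrins and Toll-like receptors among other clients. Its ratio was -0.23 and -0.41 on MAPK-inhibited a and b, and 0.35 and -0.04 on control a and b. Both MAPK-inhibited values were below both control values, and the difference was -0.47 ± 0.10 (SE, adjusted p = 0.293). *DNAJB11* encodes ERdj3, a soluble partner of the ER HSP70 that binds unfolded clients. It had ratios of -0.12 and -0.25 in MAPK-inhibited ICM and of 0.35 and 0.25 in control ICM, a difference of -0.48 ± 0.08 (SE, adjusted p = 0.279). Its second probe gave a difference of -0.51. *DNAJB9* (ERdj4), which delivers clients for ER-associated degradation, was below the pool on all 4 arrays. It stood at -0.44 and -0.85 in MAPK-inhibited ICM and at -0.11 and -0.36 in control ICM, a difference of -0.41 ± 0.09 (SE, adjusted p = 0.293).

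The disulfide isomerases, which form and rearrange the disulfide bonds of secretory proteins, were all lower (3 of 3). *PDIA3* (ERp57), which works on glycoproteins held by calnexin and calreticulin, had ratios of -0.47 and -0.21 in MAPK-inhibited ICM and of 0.12 and 0.05 in control ICM. *PDIA5* had -0.27 and -0.52 in MAPK-inhibited ICM and 0.13 and 0.08 in control ICM. *PDIA6*, which also acts on the stress sensors of the ER, had -0.36 and -0.22 in MAPK-inhibited ICM and -0.02 and 0.20 in control ICM. For all 3 genes both MAPK-inhibited arrays were below both control arrays, with differences of -0.43, -0.50 and -0.39. The other 2 probes of *PDIA6* gave -0.25 and -0.19, and the dim second probe of *PDIA5* gave -0.00.

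The ER members did not move alike. Divided after their values had been seen, the 7 members in the lumen (the 6 above and *HSPA13*, an atypical HSP70) had a median difference of -0.43 and were lower without exception, although *HSPA13* differed by -0.06 only. The 6 J-domain proteins anchored in the ER membrane had a median of 0.04, with 4 higher and 2 lower. Of these, *DNAJC1*, chosen after its values were seen, was the furthest from 0 at -0.28 ± 0.11 (SE, adjusted p = 0.441), with ratios of -0.24 and -0.20 in MAPK-inhibited ICM and 0.18 and -0.07 in control ICM.

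Spot quality moved with this result. On MAPK-inhibited a 11 of the 13 ER probes lay on uneven spots (84.6%, where 33.0% of genes did), among them all 7 lumenal members, whereas on MAPK-inhibited b and on both control arrays 0 of the 13 did. The *HSP90B1* spot, for instance, had a pixel SD of 1.07 times its mean on MAPK-inhibited a and of 0.05 times on each of the other arrays. Replicate b alone, where both arrays had even spots, gave differences of -0.36 for *HSP90B1*, -0.49 for *DNAJB11*, -0.49 for *DNAJB9*, -0.26 for *PDIA3*, -0.60 for *PDIA5* and -0.43 for *PDIA6*. Over all 13 ER members the median difference was -0.15 in replicate b, where all spots were even, and -0.33 in replicate a, where 11 were uneven on MAPK-inhibited a. The 6 genes were picked out by the fit on both pairs, so their being lower in replicate b is no independent support, and what part the uneven spots had in the ER difference was not tested. When only genes with even spots on all 4 arrays were kept, no lumenal member remained. For all 7 lumenal members both MAPK-inhibited values lay below both control values, so leaving out 1 array could not turn the sign of any difference. That they stayed lower is therefore no further support. The median difference of the 7 was -0.55 without MAPK-inhibited a, -0.39 without MAPK-inhibited b, -0.39 without control a and -0.53 without control b.

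**Figure D3:**
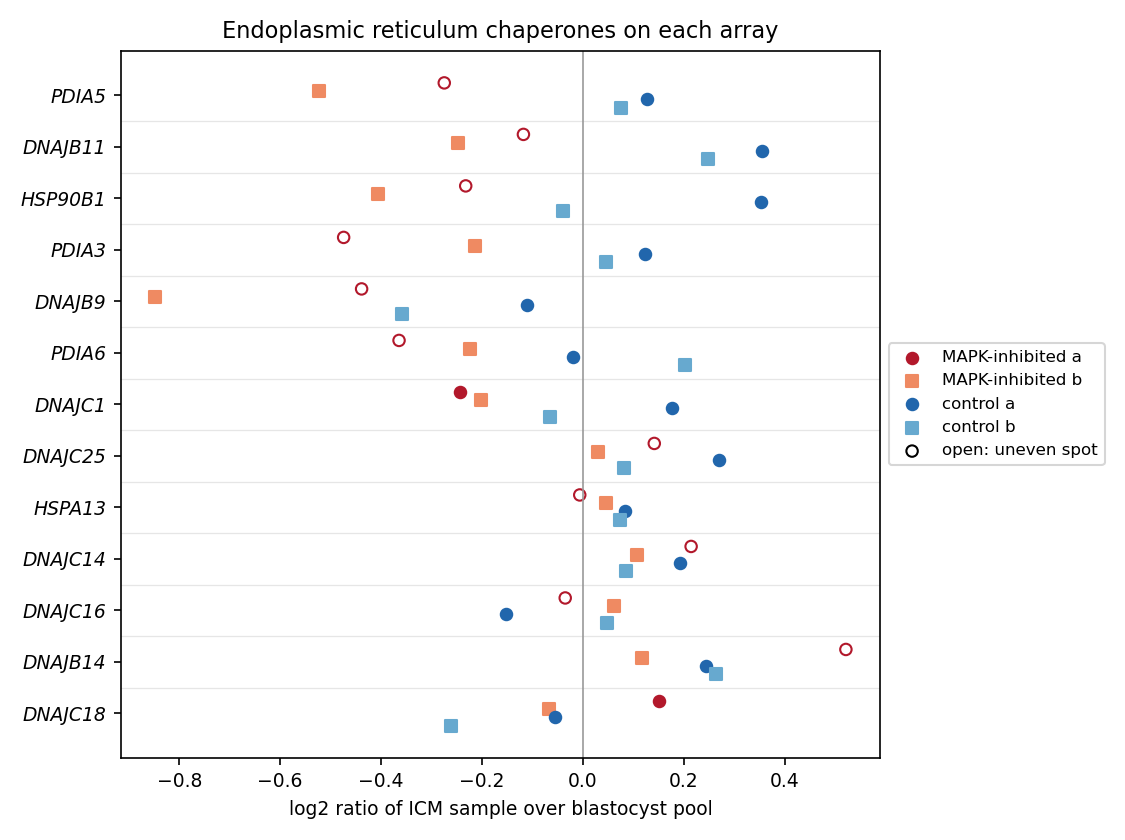
Log2 ratio of ICM sample over blastocyst pool of the 13 ER chaperones on each array, ordered by their difference (lowest at the top); MAPK-inhibited arrays in red and orange, control arrays in blue, open symbols for uneven spots. For the upper 7 genes both MAPK-inhibited arrays lie to the left of both control arrays, and the uneven spots are all on MAPK-inhibited a.

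Genes of ER folding and the unfolded protein response whose names do not fall under the rule were looked at as a separate list, chosen with earlier results of these data known. Of 32 listed genes 24 were measured, and 18 were lower and 6 higher in MAPK-inhibited ICM, with a median difference of -0.16. At an unadjusted p under 0.05, 4 were lower and 1 higher, where 4.39% and 7.53% of all genes were. *SERPINH1* encodes HSP47, the collagen chaperone of the ER. It had ratios of -0.24 and -0.08 in MAPK-inhibited ICM and of 0.95 and 0.73 in control ICM, a difference of -1.003 ± 0.13 (SE, adjusted p = 0.252). The others that were lower were *XBP1*, a transcription factor of the unfolded protein response (-0.39), *SEC63* of the translocation channel (-0.37) and *P4HB*, the founding disulfide isomerase (-0.27). *TRIB3*, a target of the stress factor CHOP, was higher at 0.50. *CALR*, the lectin chaperone calreticulin, went the other way with a difference of 0.26 ± 0.10 (SE, adjusted p = 0.433), whereas *CANX*, its membrane-bound relative calnexin, had one of -0.09.

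Hypoblast markers moved in the same direction as the ER chaperones. Of 12 measured (of 16 listed), 10 were lower in MAPK-inhibited ICM, where 47.9% of all genes were. Among these, 4 had an unadjusted p under 0.05, where 4.39% of all genes were lower at that threshold. They were *FST* at -1.27, *NID1* at -1.01, *GATA6* at -0.55 and *LAMB1* at -0.47. The mean ratio of the list was 0.10 and 0.04 on MAPK-inhibited a and b, against 0.34 and 0.29 on control a and b, and *SPARC* went the other way with 0.94. All 12 were above the negative controls on all 4 arrays. The 3 epiblast markers measured (of 4 listed, without *POU5F1*) had mean ratios of 1.58 and 1.46 in MAPK-inhibited ICM and of 1.02 and 0.88 in control ICM. Their differences were 1.34 for *NANOG*, 0.29 for *SOX2* and 0.08 for *PRDM14*, whose arrays overlapped. The 9 trophectoderm markers measured (of 15 listed, without *CDX2*, *KRT8* and *KRT18*) had mean ratios of -0.45 and 0.04 in MAPK-inhibited ICM and of -0.41 and 0.04 in control ICM. Bright genes set by the letter weighed on these means. *TFAP2C* stood at -0.81 and 1.04 in MAPK-inhibited ICM and at -1.40 and 1.75 in control ICM. *SLC2A3* stood at -0.76 and 0.78 in MAPK-inhibited ICM and at -0.71 and 0.42 in control ICM. Similar means in the groups therefore do not measure trophectoderm content. The trophectoderm means also cover members that went both ways. At an unadjusted p under 0.05 *TFAP2A* (0.47) and *PAG8* (0.30) were higher and *GATA2* (-0.52) and *ELF5* (-0.28) lower in MAPK-inhibited ICM. The 6 cumulus and granulosa markers measured (of 9 listed) had mean ratios of -0.04 and 0.35 in MAPK-inhibited ICM and of -0.24 and 0.09 in control ICM. Among them *AMH* and *STAR* followed the letter. *AMH* was at -0.46 and 0.74 in MAPK-inhibited ICM and at -0.62 and 0.73 in control ICM. What part the cell types had in the ER difference was not tested.

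The cytosolic and nuclear chaperones had a median difference of 0.00, with 21 higher and 20 lower. Their probes were dimmer than those of the ER chaperones (median raw log2 signal 8.25 against 10.93), which limits what a median near 0 can show. At an unadjusted p under 0.05, 4 of the 41 were higher and 1 lower, where 7.53% and 4.39% of all genes were. The largest difference was that of *HSPB1* (HSP27), a small heat shock protein that holds unfolded proteins in solution and binds actin filaments. Its ratio was 1.03 and 1.56 on MAPK-inhibited a and b and 0.53 and 0.50 on control a and b. It exceeded the pool on every array, and both MAPK-inhibited values were above both control values. The difference was 0.78 ± 0.16 (SE), 1.72-fold, with an adjusted p of 0.293. With the ratios as processed by the authors the same fit gave 0.82 and an adjusted p of 0.0491. Its spot was uneven on MAPK-inhibited a. Replicate b, with even spots, gave 1.07, and medians of the spot pixels in place of means gave 0.30 over both replicates.

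The other classical heat shock genes had smaller differences. *HSPH1* (HSP110), a nucleotide exchange factor of HSP70, was above the pool throughout, at 0.53 and 0.32 in MAPK-inhibited ICM and 0.34 and 0.25 in control ICM, and the groups overlapped. *DNAJB1* was at -0.45 and -0.37 in MAPK-inhibited ICM and at -0.52 and -1.07 in control ICM, a difference of 0.39 ± 0.18 (SE, adjusted p = 0.485) that came mostly from the low control b value. The constitutive HSP70 gene *HSPA8* had a difference of 0.00 and *DNAJA1* one of -0.16, with overlapping arrays in both cases. The 9 genes of the HSPA family lay between -0.12 and 0.14, but many of them were dim. *HSPA12A*, *HSPA6*, *HSPA12B*, *HSPA1L*, *HSPA13* and *HSPA1A* had raw log2 signals from 5.64 to 7.07, where the median of all genes was 8.50. For these a small difference does not show that expression was unchanged.

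The 2 cytosolic HSP90 genes did not move together. *HSP90AB1*, the constitutive form, had ratios of -0.30 and -0.35 in MAPK-inhibited ICM and of 0.19 and -0.16 in control ICM, a difference of -0.34 ± 0.11 (SE, adjusted p = 0.383). Its spot was uneven on MAPK-inhibited a, replicate b alone gave -0.18, and its 5 other probes ranged from -0.24 to 0.10. *HSP90AA1*, the inducible form, had 0.15 and 0.88 in MAPK-inhibited ICM and -0.28 and 0.88 in control ICM. Both b arrays were high whatever the group, so that the difference of 0.22 ± 0.13 (SE, adjusted p = 0.591) was smaller than the gap of 0.94 between the letters. Its 5 other probes disagreed, with differences from -0.12 to 0.57. A gap between letters larger than that between groups was also found for *CCT8* (0.95 between letters, on the probe used), *HSPA8* (0.64) and *HSPE1* (0.46), and in all for 53 of the 109 members and 51.3% of all genes. *DNAJC17*, a J protein of the nucleus, had ratios of 0.15 and 0.19 in MAPK-inhibited ICM and of -0.06 and -0.13 in control ICM, a difference of 0.26 ± 0.09 (SE, adjusted p = 0.381).

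Cofactors of the cytosolic chaperones outside the rule (19 measured of 21 listed) were 12 higher and 7 lower, with a median of 0.07. At an unadjusted p under 0.05, 2 were higher and 1 lower, where 7.53% and 4.39% of all genes were. The 2 were *CHORDC1*, an HSP90 cochaperone, at 0.33, and *ST13* (HIP), which stabilises the client-bound state of HSP70, at 0.30. The 1 lower gene was *SERPINH1*, which is on both lists. The heat shock factor gene *HSF1* had ratios of -0.50 and 0.96 in MAPK-inhibited ICM and of -0.58 and 0.81 in control ICM, again set by the letter. Of the members that only share the letters, *HSPBP1*, whose protein releases nucleotide from HSP70, was at 0.48 and 0.57 in MAPK-inhibited ICM and 0.24 and 0.04 in control ICM, a difference of 0.38 ± 0.11 (SE, adjusted p = 0.349). Its spot was uneven on MAPK-inhibited b, and replicate a alone gave 0.23.

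**Figure D4:**
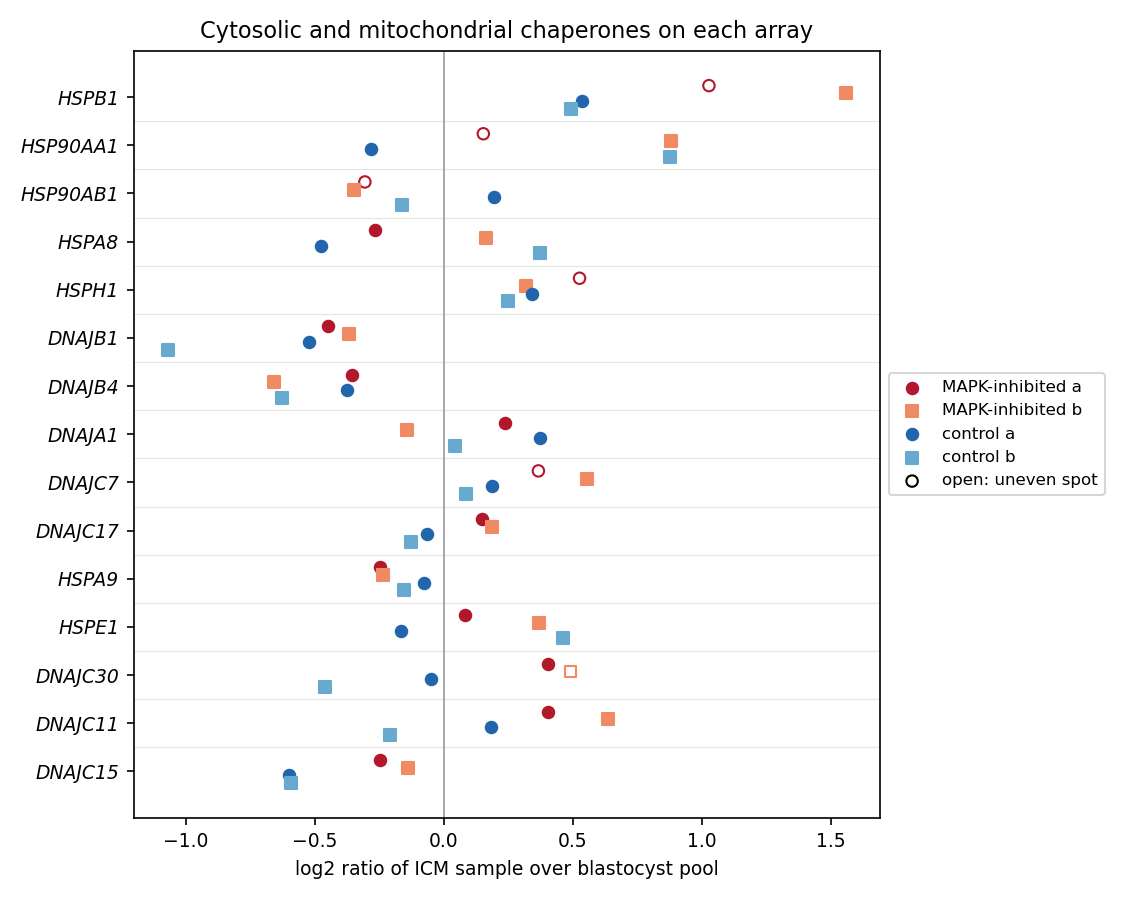
Log2 ratio of ICM sample over blastocyst pool of 15 cytosolic and mitochondrial chaperone genes on each array, with colours and symbols as for the ER chaperones. *HSPB1* is the only one of the 15 with both MAPK-inhibited values above 1, while for *HSP90AA1*, *HSPA8* and *HSPE1* the squares (replicate b) of both groups lie to the right of the circles (replicate a).

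The CCT chaperonin, which folds actin and tubulin, had 3 higher and 2 lower members between -0.10 and 0.23, with 0 of 5 at an unadjusted p under 0.05. That split depended on the probe. The other probes of *CCT8* gave -0.23 and -0.16, against 0.10 for the one used. With the mean of all probes of a gene, 2 members were higher and 3 lower, with a median of -0.02. Among the 7 mitochondrial members, *HSPA9* (mortalin), the HSP70 of the matrix, had ratios of -0.24 and -0.23 in MAPK-inhibited ICM and of -0.08 and -0.15 in control ICM, a difference of -0.12 ± 0.09 (SE), and *HSPE1*, the lid of the mitochondrial chaperonin, one of 0.08 ± 0.12 (SE). The 3 members with an unadjusted p under 0.05 were all J proteins and all higher, where 7.53% of all genes were higher. *DNAJC30*, which assists ATP synthase and complex I turnover, was at 0.40 and 0.49 in MAPK-inhibited ICM and at -0.05 and -0.46 in control ICM, a difference of 0.70 ± 0.15 (SE, adjusted p = 0.293). *DNAJC11*, a partner of the cristae-organising MICOS complex, was at 0.40 and 0.64 in MAPK-inhibited ICM and at 0.18 and -0.21 in control ICM (difference 0.53 ± 0.17, SE). *DNAJC15*, of the import motor, was below the pool on all arrays, at -0.25 and -0.14 in MAPK-inhibited ICM and at -0.60 and -0.59 in control ICM (difference 0.40 ± 0.09, SE). For none of these 3 did the other probes show the difference: that of *DNAJC30* gave -0.02, those of *DNAJC11* both -0.03, and that of *DNAJC15*, of nearly the same brightness, -0.05. The *DNAJC30* spot was uneven on MAPK-inhibited b, and replicate a alone gave 0.45.

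The constitutive proteasome showed small differences in both directions. The 13 genes of the 20S core had a median difference of -0.06, with 10 lower and 3 higher. Of the lower genes, 2 had an unadjusted p under 0.05, where 4.39% of all genes were lower. *PSMA4*, of the outer alpha ring, was at -0.28 and -0.52 in MAPK-inhibited ICM and at 0.14 and -0.13 in control ICM, a difference of -0.40 ± 0.08 (SE, adjusted p = 0.293). *PSMB3*, of the inner beta ring, was at -0.07 and -0.43 in MAPK-inhibited ICM and at 0.25 and 0.04 in control ICM, a difference of -0.40 ± 0.09 (SE, adjusted p = 0.293). Both genes had even spots on all 4 arrays, and their second probes gave -0.21 and -0.67. The catalytic subunit gene *PSMB5*, which carries the chymotrypsin-like activity, had a difference of 0.01 ± 0.19 (SE) and *PSMA7* one of 0.16 ± 0.11 (SE), both above the pool on all arrays.

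In the 19S particle, which recognises, unfolds and feeds in ubiquitinated proteins, 6 members were lower and 5 higher, with a median of -0.02. *PSMC2*, an ATPase of the base ring, was below the pool on all arrays, at -0.39 and -0.43 in MAPK-inhibited ICM and -0.08 and -0.14 in control ICM. Its difference was -0.30 ± 0.08 (SE, adjusted p = 0.336). The neighbouring ATPase gene *PSMC1* went the other way, with 0.30 and 0.45 in MAPK-inhibited ICM and 0.03 and -0.07 in control ICM, a difference of 0.39 ± 0.10 (SE, adjusted p = 0.330). The *PSMC1* spot was uneven on MAPK-inhibited b, replicate a alone gave 0.27, and its second probe gave 0.09. *PSMD12*, of the lid and chosen after its values were seen, had a difference of -0.33 ± 0.10 (SE, adjusted p = 0.361). The ubiquitin receptor gene *PSMD4* had one of 0.00 ± 0.12 (SE). *PSMD10*, counted with the regulators and assembly factors and not with the 19S particle, was the member lowest against the pool. It stood at -0.71 and -0.92 in MAPK-inhibited ICM and -0.35 and -0.49 in control ICM, and its difference was -0.39 ± 0.09 (SE, adjusted p = 0.293). Its spot was uneven on MAPK-inhibited a, and replicate b alone gave -0.43.

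Further from 0 lay the genes of the PA28 activator, a cap that interferon induces together with the alternative beta subunits and that favours the production of antigenic peptides. *PSME1* (PA28 alpha) had the largest difference of all members. Its ratio was 1.53 and 1.83 on MAPK-inhibited a and b and 0.55 and 0.46 on control a and b, above the pool on every array and with a wide gap between the groups. The difference was 1.18 ± 0.13 (SE), 2.26-fold, with an unadjusted p of 0.00065 and an adjusted p of 0.252. With the ratios as processed by the authors the same fit gave 1.24 and an adjusted p of 0.0114. Its spot was uneven on MAPK-inhibited b, whereas in replicate a both spots were even and gave 0.98. The 3 probes of *PSME1* disagreed, since the second gave 0.59 and the dimmest -0.14.

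*PSME2* (PA28 beta), the partner subunit, was at 0.42 and 0.52 in MAPK-inhibited ICM and at 0.16 and -0.01 in control ICM. Its spots were even on all arrays, the groups did not overlap, and the difference was 0.40 ± 0.11 (SE, adjusted p = 0.334). Its second probe gave 0.58. *PSME3*, which encodes the related nuclear cap PA28 gamma that interferon does not induce, had a difference of 0.04, and *PSME4* (PA200) one of -0.16, with overlapping arrays for both.

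Of the alternative beta subunits *PSMB9* (LMP2) was at 0.11 and 0.32 in MAPK-inhibited ICM and at -0.12 and -0.09 in control ICM, a difference of 0.32 ± 0.09 (SE, adjusted p = 0.350). A second probe of nearly the same brightness gave 0.25, and replicate a alone, free of the uneven spot on MAPK-inhibited b, gave 0.23. *PSMB8* (LMP7) differed by 0.08 ± 0.08 (SE) and *PSMB10* (MECL-1) by -0.04 ± 0.08 (SE). The probes used for these 2 genes were dim, with raw log2 signals of 7.06 and 7.15, against 8.92 for *PSMB9*. Whether the 3 immunoproteasome subunits moved together therefore cannot be told. The assembly chaperones PSMG1 to PSMG4 had 3 higher and 1 lower values between -0.00 and 0.26, with none at an unadjusted p under 0.05. Of 16 listed ubiquitin and proteasome accessory genes outside the rule 7 were measured, 5 higher and 2 lower. Among them was *NFE2L1*, the transcription factor that restores proteasome gene expression when proteasomes are impaired, at 0.25 and 0.28 in MAPK-inhibited ICM and at 0.02 and 0.01 in control ICM.

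**Figure D5:**
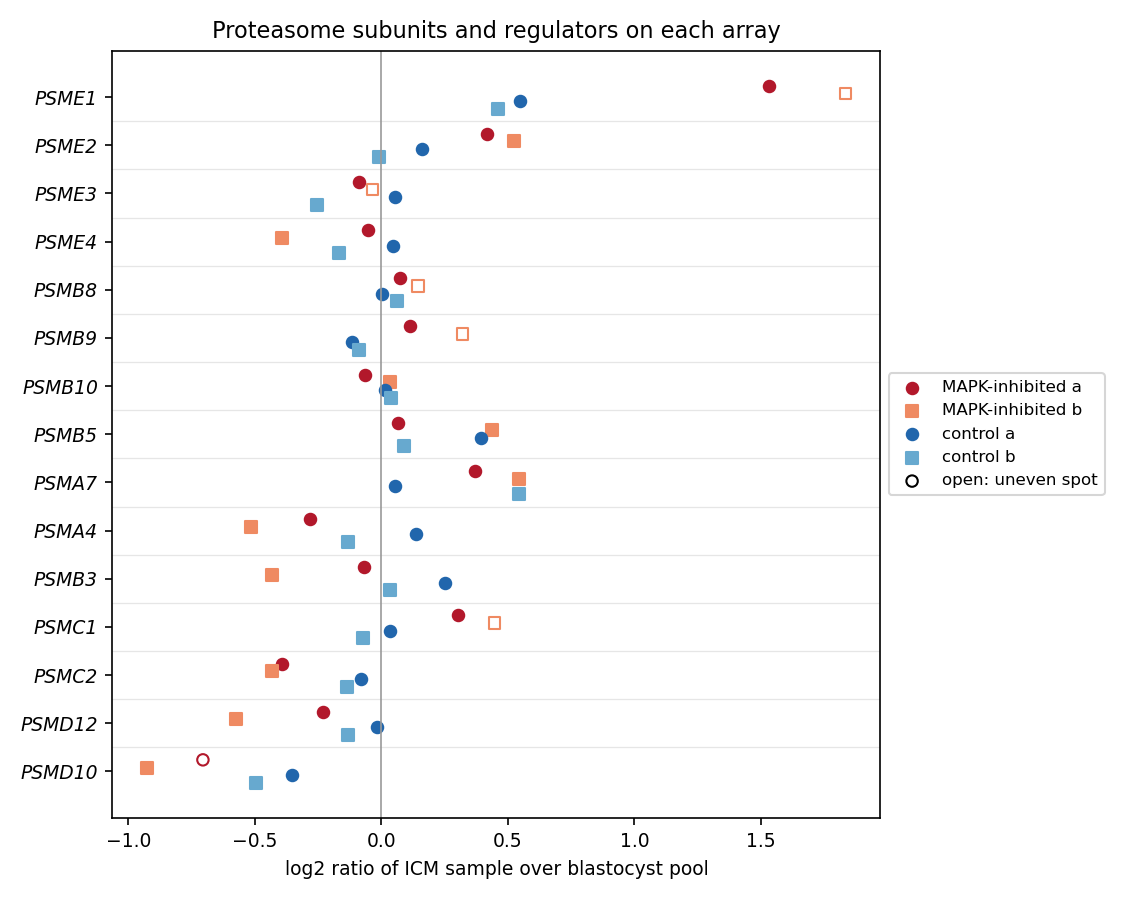
Log2 ratio of ICM sample over blastocyst pool of 15 proteasome genes on each array. PSME regulators and alternative beta subunits are in the upper rows, constitutive subunits below them, and the assembly factor *PSMD10* is in the lowest row. MAPK-inhibited arrays are in red and orange, control arrays in blue, with open symbols for uneven spots. *PSME1* lies at 1.53 and 1.83 on the MAPK-inhibited arrays, against 0.55 and 0.46 on the control arrays, while *PSMC1* and *PSMC2*, of the same ATPase ring, lie on opposite sides of 0 in MAPK-inhibited ICM.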

How the data were processed

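Spots had been quantified with Imagene, and per the file headers the deposited scanner files give the mean and median intensity of each spot and of its local background, not normalized. The authors also deposited log2 ratios (loess and correction of gene-specific dye bias), used as an alternative; regression on scanner values gave their direction as ICM over pool for every array, with column medians of 0.02, 0.01, 0.00 and 0.01 for MAPK-inhibited a and b and control a and b, and how they were centred is unknown. In limma 3.58.1 (R 4.3.3), normexp (offset 50) was applied to mean spot intensities with the median of the local background, since its mean reached 28589 at single spots. Loess was then run on the log2 ratios of each array, with 1567 control spots at weight 0. Above background means a sample signal over the 95th percentile of the 757 negative controls. No member spot had a mean signal over 65000, the limit set for saturation. The *HSP90AA1* spot came near it, with ICM signals of 60915.5 on MAPK-inhibited b and 60178.8 on control b. Whether single pixels of such bright spots were clipped was not tested.

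Of 43653 probes, 27952 had 1 gene symbol and 15701 none; 1831 symbols were brought up to date with RefSeq's gene table (assembly ARS-UCD2.0), which holds all 109 members. No coordinates are given. A gene was represented by the probe of highest mean log2 signal. A model with group and dye terms (lmFit, eBayes, two-sided, Benjamini-Hochberg adjustment over 12545 genes) had 1 residual and 3.12 prior degrees of freedom. Letter and dye coincide in the labels, so the dye term doubles as the replicate block, and same-letter arrays deviated together (r = 0.54 across genes). The study calls the replicates biological, but the labels name no separate cultures, so p-values may measure technical spread only. Which arrays shared a slide, and when each was scanned, were not given in the sources used here.

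Genes named were *HSP90B1*, *DNAJB9*, the defining members of each class, the 10 members of smallest unadjusted p on either side (same sign in both letters, above background) and the 5 highest and 5 lowest against the pool on all arrays. The members and lists were chosen with earlier results of these data known.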

Additional observations from a re-analysis of the deposited data

How the results depend on the processing

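Against 0 of 12545 genes past the adjusted threshold, 2 passed without background correction, 3 with median centring in place of loess and 119 with the authors' ratios, and between 0 and 12 with 1 array left out. Of the members 2 passed with the authors' ratios, *PSME1* (adjusted p = 0.0114) and *HSPB1* (adjusted p = 0.0491), and 0 with any array left out. Without the replicate block (no dye term) 0 genes and 0 members passed, as with it. At an unadjusted p under 0.05, 12 members were then higher and 8 lower, where 5.43% and 2.78% of all genes were. With the block 12 were higher and 12 lower. Median centring, which leaves trends with brightness in the ratios, moved the median difference of all genes to -0.05 and that of the ER chaperones to -0.44, of the cytosolic chaperones to -0.052, of the 20S core to -0.22 and of the 19S particle to -0.19, and turned that of the CCT genes to -0.13, against 0.08 with loess. The 20S median was -0.075 with the background mean and 0.0021 with the mean of all probes of a gene, which also gave a CCT median of -0.023. With even spots only, a setting chosen after seeing the data, the ER median was 0.0043 over 5 membrane-bound members, and *PSME1*, then represented by its dimmest probe, was at -0.14. Leaving out 1 array gave medians of -0.27 to -0.16 for the ER chaperones, -0.019 to 0.054 for the cytosolic chaperones, -0.16 to -0.051 for the 20S core and -0.17 to 0.13 for the 19S particle. *HSP90AA1* ran between -0.36 and 0.80 as arrays were left out, fits that have no dye term. Of the 34 genes named by rule, 25 kept their sign whichever array was left out, and 20 did so under all other alternatives run as well. Many of the 34 were named for small p-values and the same sign in both letters of these arrays. Such stability is therefore partly built in and is no independent support. The cause of these shifts was not tested. Groups of 2 arrays limit precision, and dim members such as *HSPA13* are limited by their distance from background.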
